A study of Mus musculus with 8 samples.

Results

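The genes described here are the nuclear-encoded subunits of the mitochondrial respiratory chain and of ATP synthase, measured in whole mouse liver. They were chosen by name alone, as protein-coding genes of the Nduf, Uqcr, Cox and Atp5 subunit families plus Cyc1 and Cycs, with pseudogenes left out. The rule found 83 of the 56953 gene identifiers counted, under 82 symbols, because Atp5o has 2 identifiers. They comprise 37 genes named for complex I, 9 of complex III, 18 of complex IV, 18 identifiers named for complex V (ATP synthase) and Cycs, the mobile carrier cytochrome c. Of these, 77 had enough counts to be tested.

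The tested livers came from 4 HSC-PCK1-KO samples, from male mice whose knockout of Pck1 the study's title places in stellate cells of the liver, which store vitamin A and become matrix-forming myofibroblasts after injury. They were set against 4 Control samples from males with the WT genotype. Mice of both groups were adults that ate CDHFD, a choline-deficient high-fat diet used to produce fatty, inflamed and scarred liver, over 8 weeks. Poly(A) RNA of integrity number 8 or above was sequenced strand-specifically in a single batch. The sources used here do not give the Cre driver, the strain or the exact age. The design text calls the 4 samples of a group biological replicates, although the labels number them without naming the mouse behind each.

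Electrons from NADH enter the respiratory chain at complex I and those from succinate at complex II, and they pass through complex III, cytochrome c and complex IV to oxygen. Complexes I, III and IV pump protons across the inner mitochondrial membrane, and ATP synthase lets the protons return while it makes ATP. Most subunits are encoded in the nucleus and imported, while a few of the most hydrophobic ones are encoded by mitochondrial DNA. In liver the chain runs mainly in hepatocytes, and it reoxidises the NADH and FADH2 made by fatty acid oxidation and the tricarboxylic acid cycle.

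Library totals ranged from 44695439 to 49477255 counts. Pck1 stood at 339, 794, 593 and 948 CPM (the depth-scaled count, here with TMM-scaled library totals) in the HSC-PCK1-KO livers, against 1001, 2012, 550 and 1027 CPM in the Control livers. The ranges of the groups overlapped (log2 fold change -0.78, SE 0.44, adjusted p = 0.9998 by edgeR), and whole liver also holds the Pck1 mRNA of hepatocytes. All 12 hepatocyte markers were abundant, from 503 CPM upward on average in HSC-PCK1-KO livers, so the samples fit their label of liver. Summed levels of 10 stellate cell markers were 300.1 to 381 CPM in HSC-PCK1-KO livers, against 336 to 479 CPM in Control livers, and those of 10 macrophage markers were 357 to 531 CPM in HSC-PCK1-KO livers, against 373 to 692 CPM in Control livers. Of the stellate and macrophage markers none was at 0, and 8 striated muscle markers together reached no more than 0.127 CPM in any library, with Myh2 at 0 throughout. Summed levels of 6 endothelial markers were 166 to 225 CPM in HSC-PCK1-KO livers, against 185 to 216 CPM in Control livers, and those of 5 mesothelial markers were 2.08 to 3.41 CPM in HSC-PCK1-KO livers, against 4.18 to 10.6 CPM in Control livers.

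The level of a typical subunit transcript was lowest in complex I. Per kilobase of transcript, the median tested gene of complex I stood at 81.9 CPM in HSC-PCK1-KO livers, against 78.7 CPM in Control livers. The medians of complex III, complex IV and ATP synthase were 247, 284 and 245 CPM per kilobase in HSC-PCK1-KO livers, against 235, 276 and 239 CPM per kilobase in Control livers. The highest level per kilobase in ATP synthase was that of Atp5g3 (now Atp5mc3), one of the genes for the proton-carrying c subunit, at 843 CPM in HSC-PCK1-KO livers, against 809 CPM in Control livers. In complex III it was that of Uqcrq, a small accessory subunit, at 804 CPM in HSC-PCK1-KO livers, against 747 CPM in Control livers. In complex IV it was that of Cox4i1, the ubiquitous form of subunit 4, at 650.5 CPM in HSC-PCK1-KO livers, against 645 CPM in Control livers. Ndufa4, named for complex I and since assigned to complex IV, led the Nduf genes at 487 CPM per kilobase in HSC-PCK1-KO livers, against 476 CPM in Control livers. All members together took 1.254% ± 0.042 of all counts in HSC-PCK1-KO livers and 1.229% ± 0.072 in Control livers (SD, n = 4 each).

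**Figure D1:**
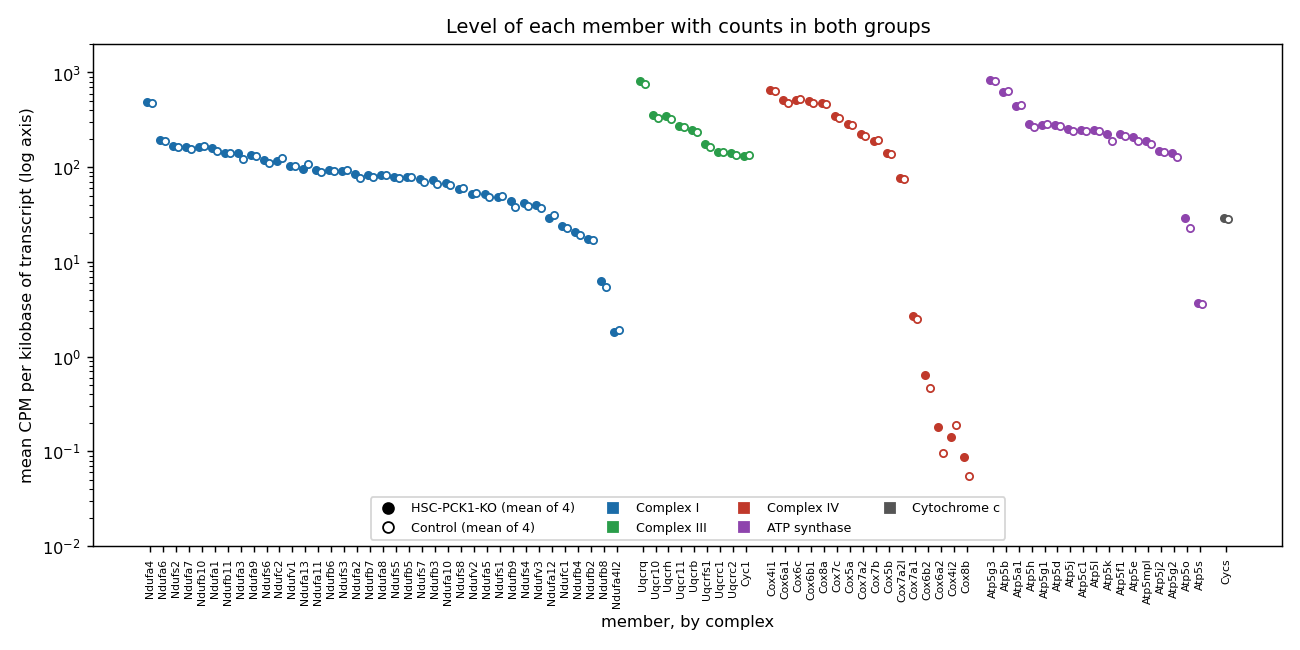
Mean CPM per kilobase of transcript (log axis) of each member with counts in both groups, ordered by complex and level, with filled circles for the 4 HSC-PCK1-KO libraries and open circles for the 4 Control libraries. Filled and open circles lie close together for all but the genes below about 1 CPM per kilobase, which are tissue isoforms of complex IV.

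Liver expressed the ubiquitous forms of the complex IV subunits, and of the 7 forms of other tissues 5 were too low to test. Cox8a, the ubiquitous form of subunit 8, had 276, 262, 262 and 248.6 CPM in HSC-PCK1-KO livers, against 275, 254, 268 and 232 CPM in Control livers. Cox8b, the form of heart, skeletal muscle and brown fat, had 2, 1, 1 and 2 counts in the HSC-PCK1-KO libraries, against 1, 0, 1 and 2 counts in the Control libraries. Cox8c and Cox7b2, the testis forms, had 0 counts in all 8 libraries, which allows up to 3 counts per library, or 0.0574 to 0.0707 CPM. Cox4i2, best known from lung, had 2 to 11 counts in HSC-PCK1-KO and 5 to 9 counts in Control libraries, and Cox6a2, the muscle form of subunit 6a, had 1 to 10 counts in HSC-PCK1-KO and 1 to 8 counts in Control libraries. These are the 5 untested genes, and Cox6b2 and Cox7a1 are described with complex IV. Such floors cover counting error only.

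The promoters of these genes are shown because subunit genes are known targets of the transcription factors NRF1 and GABP. RefSeq (GRCm38.p6) gave a promoter, 250 bases before to 50 bases after the start, for 66 of the 82 symbols. The NRF1 motif, GCGC and TGCGC with 1 base of any kind between them, was present in 15 of the 66 (22.7%), against 5.19% of all 27025 genes with a promoter. Both strands were searched, and a gene was counted if any of its start sites had a match. The GABPA motif CCGGAAG was present in 14 (21.2%), against 9.93% of all these genes, and the YY1 motif AAGATGGCG in 7 (10.6%), against 1.64%. Since CCGGAAG ends with the 3 letters that begin AAGATGGCG, a single stretch can hold both. Any of the 3 motifs was present in 31 of the 66 (47.0%), against 15.1% of all genes with a promoter. The median number of CG dinucleotides, at each gene's start site with the most, was 19 in the members and 8 in all. A match describes letters only. Cox6a1, Atp5h and Atp5k were the members with both an NRF1 and a GABPA motif in that window, and Cox8a and Cox8b are the pair of a ubiquitous and a muscle form whose levels are given above. The 150 bases before each start are printed 5′ to 3′, with NRF1 and GABPA motifs in capitals on either strand. All 5 genes lie on the minus strand.
Cox6a1 (chr5:115348959-115349108): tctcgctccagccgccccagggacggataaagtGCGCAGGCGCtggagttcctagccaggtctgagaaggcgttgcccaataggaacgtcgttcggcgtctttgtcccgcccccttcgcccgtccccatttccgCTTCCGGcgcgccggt
Atp5h (chr11:115419920-115420069): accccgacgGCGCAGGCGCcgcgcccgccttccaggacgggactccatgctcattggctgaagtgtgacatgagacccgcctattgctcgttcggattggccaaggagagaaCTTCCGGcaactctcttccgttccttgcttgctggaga
Atp5k (chr5:108434400-108434549): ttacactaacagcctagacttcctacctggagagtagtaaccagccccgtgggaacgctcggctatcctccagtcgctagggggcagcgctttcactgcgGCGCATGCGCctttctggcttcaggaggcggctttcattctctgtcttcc
Cox8a (chr19:7217617-7217766): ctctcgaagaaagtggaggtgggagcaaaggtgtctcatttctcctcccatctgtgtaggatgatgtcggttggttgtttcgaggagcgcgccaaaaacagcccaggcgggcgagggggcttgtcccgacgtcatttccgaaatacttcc
Cox8b (chr7:140900447-140900596): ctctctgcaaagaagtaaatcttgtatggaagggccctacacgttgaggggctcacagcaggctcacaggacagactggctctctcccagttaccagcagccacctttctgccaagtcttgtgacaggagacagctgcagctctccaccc
The printed stretch holds 18 CG dinucleotides in Cox6a1, 13 in Atp5h, 9 in Atp5k, 10 in Cox8a and 1 in Cox8b. The GABPA motifs of Atp5k and Cox8a lie outside the printed stretch, within the 300-base window.

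Setting HSC-PCK1-KO livers against Control livers addresses whether the chain's transcripts differ where Pck1 is lost from stellate cells, in a study whose title names the tricarboxylic acid cycle that feeds the chain. No subunit gene passed the test. edgeR's quasi-likelihood test called 0 of the 77 members at an adjusted p below 0.05, as it called 0% of all 15669 genes tested. DESeq2 called 0 members and 6 genes in all (0.0383%), and limma-voom called 0 of either. At an unadjusted p below 0.05 there were 0 members by any of these 3 tools, against 2.36% of all genes by edgeR. In 0 of the 77 members did the CPM of the groups not overlap, against 1.53% of all genes. In bulk tissue, fewer cells of a type and less RNA per cell cannot be told apart.

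The differences were small as well as uncalled. The log2 fold change was positive in 59 members and negative in 18, with a median of 0.054 (1.04-fold), against a median of -0.0055 over all genes, of which 48.2% were positive. The count of 59 was the same with TMM, RLE and upper quartile scaling. It was 41 without HSC-PCK1-KO replicate 1 and 38 without Control replicate 4, with medians of 0.0048 and -0.0027. With both of those libraries left out, an alternative chosen after seeing the data, 18 of 77 were positive and the median was -0.046. Single genes ranged from -0.16 for Ndufa13 to 0.47 for Cox6b2. The median SE of a member's log2 fold change was 0.10, against 0.13 over all genes. The 95% interval lay within 1.5-fold of no difference in 73 of the 77 and within 1.2-fold in 27. The exceptions at 1.5-fold were Cox6b2, Cox7a1, Atp5o and Atp5k, whose intervals reached past a 1.5-fold higher level in HSC-PCK1-KO livers, and that of Cox6b2 also reached past 2-fold.

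**Figure D2:**
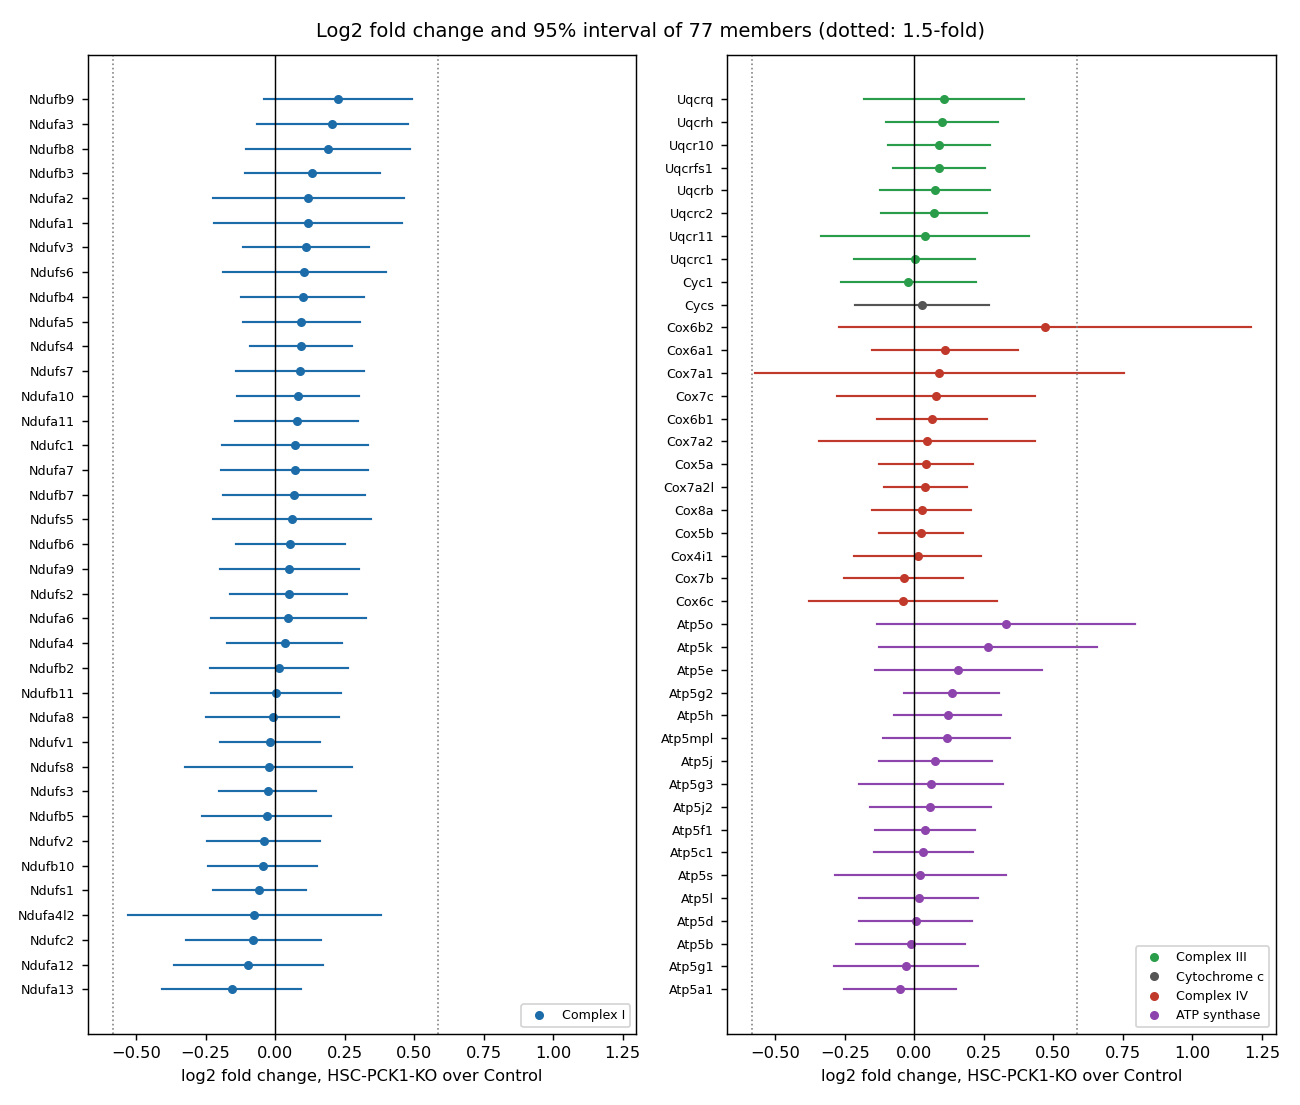
Log2 fold change, HSC-PCK1-KO over Control, of each of the 77 members tested, with its 95% interval from edgeR and dotted lines at 1.5-fold in either direction. Every interval crosses 0, and only those of Cox6b2, Cox7a1, Atp5o and Atp5k cross the upper dotted line.

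Complex I had 25 positive and 12 negative log2 fold changes among its 37 genes, with a median of 0.054. Its 7 core subunits, which carry the flavin and iron-sulfur clusters and the quinone site, had 2 positive values and a median of -0.023. Its accessory subunits surround that core, and the 30 genes grouped as accessory had 23 positive values and a median of 0.069. These 30 include Ndufa4, since assigned to complex IV, and its paralog Ndufa4l2. The core count was 5 of 7 without Control replicate 3 and 4 of 7 without HSC-PCK1-KO replicate 4 or Control replicate 2, and the accessory count was 15 of 30 without HSC-PCK1-KO replicate 1 or without Control replicate 4. Each count was the same with all 3 scalings, and core and accessory subunits were not tested against each other.

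Ndufs1, the largest core subunit with iron-sulfur clusters, had 130.3, 127, 117 and 123 CPM in HSC-PCK1-KO livers, against 142, 131, 125 and 120 CPM in Control livers. The Control replicate 1 library was the highest and the groups overlapped (log2 fold change -0.06, SE 0.075). Ndufv1, which binds NADH and the flavin, had 172, 169, 184 and 159 CPM in HSC-PCK1-KO livers, against 165, 189, 180.3 and 159 CPM in Control livers, with both groups covering nearly the same range. Among the accessory subunits, Ndufb9 (ENSMUSG00000022354.5), of the membrane arm, had the smallest unadjusted p of all members (0.0868). It had 36.6, 29.1, 31.4 and 28.1 CPM in HSC-PCK1-KO livers, against 27.4, 27.5, 30.8 and 21.3 CPM in Control livers. HSC-PCK1-KO replicate 1 was the highest and Control replicate 4 the lowest, and the other 6 libraries lay between 27.4 and 31.4 CPM (log2 fold change 0.23, SE 0.12, adjusted p = 0.9998 by edgeR). Of its annotated exon bases, 19.5% overlap Gm49356 on the same strand, which had 0 counts in all 8 libraries.

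Ndufa3, another accessory subunit of the membrane arm, showed the same libraries at its ends. It had 87.8, 64.9, 71.4 and 65.4 CPM in HSC-PCK1-KO livers, against 69.2, 69.7, 60.5 and 51.8 CPM in Control livers (log2 fold change 0.20, SE 0.12). Ndufb8, whose protein is often used as a marker of assembled complex I, was counted at only 4.82, 3.82, 3.65 and 4.69 CPM in HSC-PCK1-KO livers, against 3.41, 3.63, 3.97 and 3.87 CPM in Control livers (log2 fold change 0.19, SE 0.13). Its annotated exons overlap those of Gm20538 on the same strand, which had 0 counts in all 8 libraries. Ndufb2 stood at 7.86 ± 1.06 CPM in HSC-PCK1-KO livers, against 7.79 ± 0.44 CPM in Control livers (SD, n = 4 each), and overlaps Gm42420 in the same way. The sources used here do not say how reads in such overlaps were counted. The other accessory subunits ranged in log2 fold change from -0.16 for Ndufa13, at 120.0 ± 11.4 CPM in HSC-PCK1-KO livers, against 134 ± 19.4 CPM in Control livers (SD, n = 4 each), to 0.13 for Ndufb3.

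Ndufa4 and its paralog Ndufa4l2, which hypoxia induces, differed far more in level than either did between groups. Ndufa4 had 335, 303, 260.4 and 291 CPM in HSC-PCK1-KO livers, against 296, 297, 303 and 265 CPM in Control livers, and the groups overlapped. Ndufa4l2 had 1.496, 1.59, 1.60 and 2.09 CPM in HSC-PCK1-KO livers, against 1.38, 1.70, 2.39 and 1.68 CPM in Control livers, with the highest library in the Control group.

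Complex III, which passes electrons from ubiquinol to cytochrome c, had 8 positive values among 9 genes and a median log2 fold change of 0.073. The count was 6 of 9 without HSC-PCK1-KO replicate 1 or without Control replicate 4. Uqcrfs1, the Rieske iron-sulfur protein, had 245, 247, 236 and 222 CPM in HSC-PCK1-KO livers, against 229, 224, 235 and 207 CPM in Control livers. The 2 highest libraries were HSC-PCK1-KO ones and the lowest a Control one, but the groups overlapped (log2 fold change 0.09, SE 0.075). Uqcrh, the acidic hinge protein, had 219.9, 187, 173 and 186 CPM in HSC-PCK1-KO livers, against 177, 182, 192 and 164 CPM in Control livers (0.10, SE 0.090 on the log2 scale). Uqcr10, a small subunit, had 160.2, 161, 154 and 140.3 CPM in HSC-PCK1-KO livers, against 157, 141, 150.1 and 130 CPM in Control livers (0.09, SE 0.082).

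The other redox subunit of complex III and its partner showed smaller differences. Cyc1, cytochrome c1, had 209, 204, 212 and 182 CPM in HSC-PCK1-KO livers, against 196, 211, 243 and 170 CPM in Control livers, and the highest and the lowest library were both Control ones (log2 fold change -0.02, SE 0.11). Cycs, the soluble cytochrome c that receives its electrons, had 104, 98.5, 76.4 and 81.9 CPM in HSC-PCK1-KO livers, against 99.6, 83.2, 87.4 and 83.9 CPM in Control livers. The HSC-PCK1-KO libraries held both the highest and the lowest value (0.03, SE 0.11), and the sign of the Cycs value was negative without HSC-PCK1-KO replicate 1, HSC-PCK1-KO replicate 2 or Control replicate 2. Uqcrc1, a core protein descended from a processing peptidase, had 242, 255, 263 and 202 CPM in HSC-PCK1-KO livers, against 237, 254, 251 and 219 CPM in Control livers, a log2 fold change of 0.0011.

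Complex IV, cytochrome c oxidase, had 11 positive values among the 13 genes tested and a median of 0.042; of its 11 ubiquitous subunits 9 were positive, with a median of 0.040. That count of 9 was 6 without HSC-PCK1-KO replicate 1 and 4 without Control replicate 4. Cox4i1, the regulatory subunit that binds ATP, had 490.2, 447, 533 and 468 CPM in HSC-PCK1-KO livers, against 488, 495, 534 and 405 CPM in Control livers. The groups covered nearly the same range (log2 fold change 0.01, SE 0.10). Cox5a, an early-assembling subunit next to Cox4i1, had 184, 181, 195 and 174 CPM in HSC-PCK1-KO livers, against 164, 185, 191 and 172 CPM in Control livers (0.04, SE 0.077).

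The groups also overlapped in the small subunits of complex IV. Cox6a1 had 316, 292, 337 and 235 CPM in HSC-PCK1-KO livers, against 274, 281, 297 and 241 CPM in Control livers, so HSC-PCK1-KO libraries were both the highest and the lowest (log2 fold change 0.11, SE 0.12). Cox6b1, which bridges the monomers of the oxidase dimer, had 324, 283, 322 and 304 CPM in HSC-PCK1-KO livers, against 297, 323, 301 and 259 CPM in Control livers (0.06, SE 0.089). Cox7a2, the liver form of subunit 7a, had 166, 142, 126 and 150 CPM in HSC-PCK1-KO livers, against 149, 146, 177 and 93.8 CPM in Control livers. Its Control libraries spanned the HSC-PCK1-KO ones (0.05, SE 0.17). Cox7a2l, which joins complexes III and IV into supercomplexes, had 87.8, 83.8, 84.1 and 79.2 CPM in HSC-PCK1-KO livers, against 79.6, 79.4, 88.5 and 78.3 CPM in Control livers (0.04, SE 0.067). Cox8a, whose values are given above, had a log2 fold change of 0.03 (SE 0.080).

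The 2 tissue isoforms that could be tested were low. Cox6b2, the testis form of subunit 6b, had 11, 13, 15 and 19 counts in the HSC-PCK1-KO libraries and 10, 5, 11 and 16 counts in the Control libraries. This gave the largest log2 fold change of any member tested, 0.47 with a 95% interval from -0.27 to 1.21, and the groups overlapped. Cox7a1, the heart and muscle form of subunit 7a, had 60, 40, 51 and 50 counts in HSC-PCK1-KO and 70, 27, 58 and 35 counts in Control libraries, and the Control libraries held both ends (0.09, SE 0.30). Striated muscle markers were near 0 in both groups, as given above, and their part in the Cox7a1 counts was not tested.

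ATP synthase had 14 positive values among 17 tested genes and a median log2 fold change of 0.057. These 17 include Atp5s (now Dmac2l), coupling factor B, at 0.02, which was also named among the ATP synthase assembly factors and is counted here by its older symbol. The 5 genes of the catalytic head of ATP synthase, which makes the ATP, had 3 positive values and a median of 0.0042. The 4 tested genes of the peripheral stalk, which holds the head still, were all positive with a median of 0.097, and so were the 4 small membrane subunits with a median of 0.086. With HSC-PCK1-KO replicate 1 and Control replicate 4 left out together, 0 of the 5 head genes, 2 of the 4 stalk genes and 2 of the 4 small membrane genes were positive. The small membrane count was also 2 without either of those libraries alone.

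The catalytic head held the most abundant members by CPM. Atp5b (now Atp5f1b), the catalytic beta subunit, had 1179, 1224, 1273 and 1141 CPM in HSC-PCK1-KO livers, against 1214, 1269, 1277 and 1101 CPM in Control livers. The Control group held both the highest and the lowest library (log2 fold change -0.01, SE 0.088). Atp5a1 (now Atp5f1a), the alpha subunit, had 1050, 1086, 1157 and 1036 CPM in HSC-PCK1-KO livers, against 1140, 1162, 1194 and 993 CPM in Control livers, again with both ends in the Control group (-0.05, SE 0.091).

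The genes with the smallest p in ATP synthase were counted at lower levels. Atp5g2, which encodes the c subunit as do Atp5g1 and Atp5g3, had 61.8, 67.0, 61.2 and 59.2 CPM in HSC-PCK1-KO livers, against 59.3, 54.8, 51.0 and 62.1 CPM in Control livers (log2 fold change 0.13, SE 0.077). The highest library was an HSC-PCK1-KO one, and Control replicate 4 lay among the HSC-PCK1-KO values. Of the 100-base stretches in its transcripts, 34.7% also occur in transcripts of 2 other genes, and for Atp5o the share is 15.0%. Such a stretch is shared by 20 of the members tested, and 5 share over 20% of theirs. The sources used here do not say how reads from shared stretches were counted. Atp5o (ENSMUSG00000022956.12), the stalk subunit that confers sensitivity to oligomycin, had 30.8, 18.9, 22.9 and 24.6 CPM in HSC-PCK1-KO livers, against 22.3, 23.6, 18.7 and 12.8 CPM in Control livers (0.33, SE 0.20). Atp5k, the small membrane subunit e, had 105, 66.1, 78.6 and 86.8 CPM in HSC-PCK1-KO livers, against 69.9, 78.8, 80.8 and 50.1 CPM in Control livers (0.27, SE 0.17).

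In Atp5o and Atp5k alike, HSC-PCK1-KO replicate 1 was the highest library and Control replicate 4 the lowest. Without Control replicate 4 the log2 fold changes were 0.18 for Atp5o and 0.14 for Atp5k. The second Atp5o identifier (ENSMUSG00000116933.2) overlaps the first on the same strand and had 0 counts in all 8 libraries. The other c subunit genes, Atp5g1 and Atp5g3, encode the same mature protein. Atp5g1 had 173, 171, 189 and 133 CPM in HSC-PCK1-KO livers, against 169, 184, 181 and 145 CPM in Control livers (log2 fold change -0.03, SE 0.12). Atp5g3 had 637, 586, 666 and 517 CPM in HSC-PCK1-KO livers, against 601, 590, 644 and 477 CPM in Control livers (0.06, SE 0.12).

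The members varied together across libraries more than between groups. Each gene's log2 CPM was set against its own mean over the 8 libraries, and the mean of these deviations over the 77 members was 0.17, -0.00034, 0.040 and -0.092 in HSC-PCK1-KO replicates 1 to 4 and 0.018, 0.0048, 0.073 and -0.21 in Control replicates 1 to 4. The groups overlapped and differed by 0.058, less than the SD of 0.11 among HSC-PCK1-KO libraries and 0.13 among Control libraries. HSC-PCK1-KO replicate 1 was the highest of the 8 libraries in 35 of 77 members (45.5%), against 13.8% of all genes tested, and Control replicate 4 was the lowest in 48 (62.3%), against 12.3% of all genes. HSC-PCK1-KO replicate 1 was the lowest, and Control replicate 4 the highest, in 0 members. Each of complexes I, III, IV and V had its highest mean deviation, 0.15 to 0.17, in HSC-PCK1-KO replicate 1 and its lowest, -0.20 to -0.22, in Control replicate 4.

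Lists of genes outside the chain also stood apart in these libraries. The 42 cytosolic ribosomal protein genes, structural parts of the ribosome, had mean deviations of 0.15, -0.046, 0.068 and -0.12 in the HSC-PCK1-KO libraries and 0.046, 0.11, 0.00059 and -0.20 in the Control libraries. The 10 stellate cell markers were at -0.37, 0.041, 0.068 and 0.042 in the HSC-PCK1-KO libraries and 0.16, -0.24, -0.14 and 0.44 in the Control libraries. The 10 macrophage markers were at -0.13, -0.051, -0.046 and 0.22 in the HSC-PCK1-KO libraries and 0.097, -0.67, -0.29 and 0.88 in the Control libraries. Thus the library with the lowest subunit levels, Control replicate 4, had the highest stellate and macrophage markers, and HSC-PCK1-KO replicate 1, with the highest subunit levels, had the lowest stellate markers. Those libraries were also the ends for 5 mesothelial markers, at -1.12 in HSC-PCK1-KO replicate 1 and 1.2 in Control replicate 4. The same held for 5 cholangiocyte markers, at -0.48 in HSC-PCK1-KO replicate 1 and 0.49 in Control replicate 4. These lists share genes, Spp1 between macrophage and cholangiocyte markers and Krt19 between cholangiocyte and mesothelial markers. The 12 hepatocyte markers were at -0.11 in HSC-PCK1-KO replicate 1 and -0.12 in Control replicate 4, so their mean did not separate these libraries. That list includes Pck1 itself, whose lowest level was in HSC-PCK1-KO replicate 1, and the mean without Pck1 was not computed. Summed hepatocyte markers, of which Alb was the largest, did differ. They totalled 114730 CPM for HSC-PCK1-KO replicate 1, while Control replicate 4 had 96671 CPM. By that sum these libraries were not the ends, as Control replicate 1 was higher and HSC-PCK1-KO replicate 3 lower. Nor were these libraries at opposite ends for 6 endothelial markers, at 0.11 in HSC-PCK1-KO replicate 1 and 0.15 in Control replicate 4. The 6 lymphocyte markers were at 0.17 and 0.24 in the same libraries. The part of any of these in the members' differences was not tested.

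**Figure D3:**
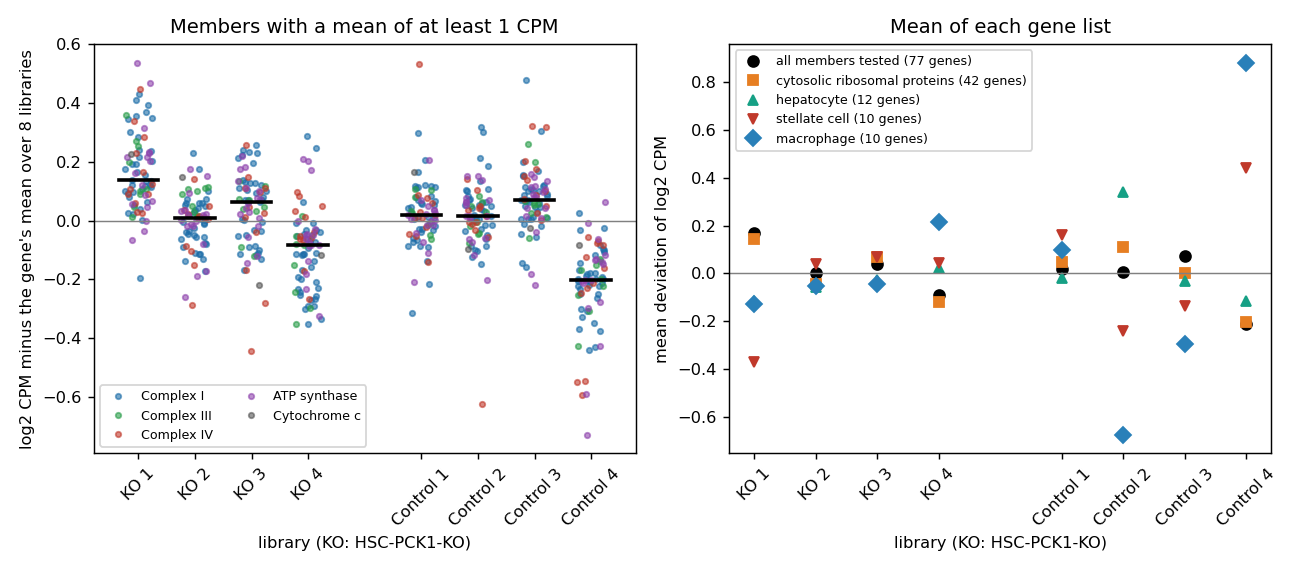
Left, deviation of each member's log2 CPM from its mean over 8 libraries, for members with a mean of at least 1 CPM, with a bar at the median of each library. Right, mean deviation of all 77 members tested and of 4 other gene lists in each library; members and ribosomal proteins are highest in HSC-PCK1-KO replicate 1 and lowest in Control replicate 4, where macrophage markers are highest.

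The members are also described by the length of their transcripts. Of the 35 tested members whose transcript is shorter than 700 bases, 32 had a positive log2 fold change, with a median of 0.077. Of the 42 longer ones 27 were positive, with a median of 0.026, and of the 25 of at least 1000 bases 14 were positive, with a median of 0.021. Across the 77 members, which share the same libraries and are not independent, Pearson's r between log2 length and log2 fold change was -0.41 and Spearman's rho -0.47. Pearson's r was -0.24 without HSC-PCK1-KO replicate 1 and -0.29 without Control replicate 4. It was -0.37 across the 42 ribosomal protein genes and -0.11 across all 13244 protein-coding genes tested. With both of those libraries left out, 12 of the 35 shorter members and 6 of the 42 longer ones were positive. In HSC-PCK1-KO replicate 1 the mean deviation was 0.22 for the shorter members and 0.099 for those of at least 1000 bases.

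**Figure D4:**
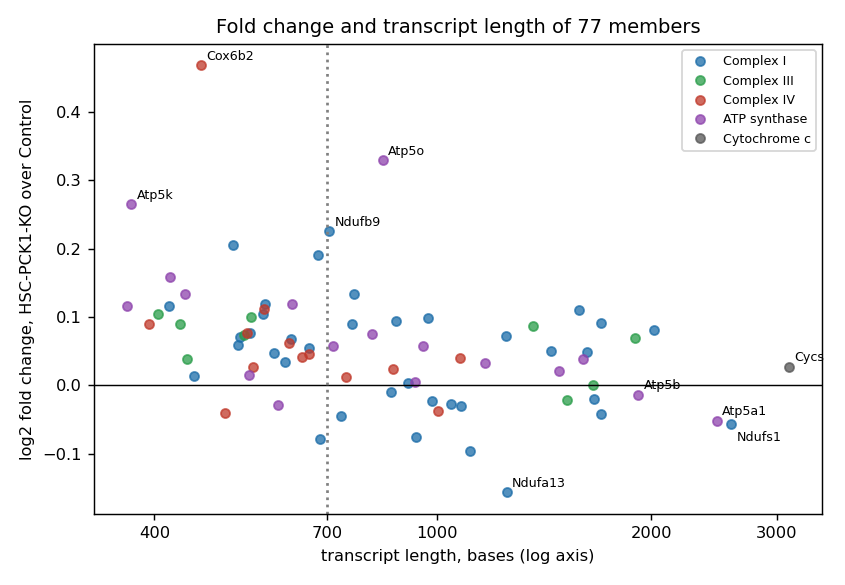
Log2 fold change, HSC-PCK1-KO over Control, against transcript length (log axis) for the 77 members tested, coloured by complex, with a dotted line at 700 bases. Most points left of the line lie above 0, while points right of it lie on both sides, with Atp5a1 and Ndufs1 slightly below 0.

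Other genes that serve the chain were also uncalled, with 0 passing in each list by edgeR. In complex II, 7 of 8 succinate dehydrogenase subunits and assembly factors were positive with a median log2 fold change of 0.021. Its 2 genes with the smallest p were the assembly factor Sdhaf1, at 13.8 ± 1.70 CPM in HSC-PCK1-KO livers, against 14.7 ± 1.56 CPM in Control livers, and the membrane anchor Sdhd, at 209 ± 13.2 CPM in HSC-PCK1-KO livers, against 203 ± 15.8 CPM in Control livers (SD, n = 4 each). The list for complex I, which held the subunit Ndufab1 beside assembly factors, was positive in 11 of 17. Foxred1 was at -0.08 and Ndufaf1 at 0.08. Assembly factors were positive in 5 of 6 for complex III, with Bcs1l, which inserts the Rieske protein, at -0.12 and Uqcc3 at 0.15. For complex IV 15 of 24 were positive, with Cmc2 at 0.24 and Cox18, which inserts subunit 2 into the membrane, at -0.16. For ATP synthase 3 of 5 were positive, with Atpaf2 at 0.09 and Atpaf1 at -0.07. That list also held Dmac2, an assembly factor of complex I, at -0.0029. The medians of these 4 lists lay between 0.017 and 0.045. Of 6 tested carriers of ATP and phosphate and porins 4 were positive, with Vdac3 at 0.13 and Slc25a4 at -0.14. At an unadjusted p below 0.05 there were 0 genes in each of these lists.

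The regulators of mitochondrial biogenesis had 5 positive values among 14 and a median of -0.014. Ppargc1a, the coactivator PGC-1 alpha, had 5.69, 6.59, 6.31 and 8.75 CPM in HSC-PCK1-KO livers, against 6.25, 6.11, 7.50 and 7.14 CPM in Control livers (log2 fold change 0.02, SE 0.14). Its relatives Ppargc1b and Pprc1, with the smallest p in the list, stood at 1.75 ± 0.44 and 13.2 ± 2.73 CPM in HSC-PCK1-KO livers and at 2.20 ± 0.38 and 14.9 ± 1.04 CPM in Control livers (SD, n = 4 each), and both had overlapping groups. The factors whose motifs are printed above, Nrf1 and Gabpa, had log2 fold changes of 0.09 (SE 0.11) and 0.01 (SE 0.079). The nuclear receptor Esrra was at 0.06 (SE 0.11) and Tfam, which packages and transcribes mitochondrial DNA, at -0.04 (SE 0.064). No regulator had an unadjusted p below 0.05.

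The 13 mitochondrially encoded subunits, partners of the nuclear ones in the same complexes, had 12 positive values and a median log2 fold change of 0.33. The larger values belonged to thinly counted genes. The 6 abundant ones, mt-Nd1, mt-Nd2, mt-Nd4, mt-Nd5, mt-Cytb and mt-Co1, averaged 5012 CPM or more in each group. Their log2 fold changes lay between -0.07 and 0.18, and the other 7 genes averaged at most 51.7 CPM. The sources used here do not say how reads were counted, so those low values need not be the levels of the transcripts. mt-Atp8 had an unadjusted p below 0.05 (0.0479; adjusted p = 0.9998 by edgeR) at 1.19 ± 0.499 CPM in HSC-PCK1-KO livers, against 0.683 ± 0.236 CPM in Control livers (SD, n = 4 each). mt-Co3, next in order of p, had 13.0, 5.53, 4.71 and 10.5 CPM in HSC-PCK1-KO livers, against 4.77, 5.96, 6.65 and 5.61 CPM in Control livers (log2 fold change 0.55, SE 0.31), with HSC-PCK1-KO replicates 1 and 4 above all the others. With each gene weighted alike, the mean deviations of all 13 were 0.61, -0.26, -0.32 and 0.41 in the HSC-PCK1-KO libraries. They were -0.15, -0.0032, -0.035 and -0.25 in the Control libraries, so the groups overlapped, with HSC-PCK1-KO replicates 1 and 4 high by this mean. Summed levels, which the abundant genes dominate, were 86866, 68879, 65228 and 70155 CPM in HSC-PCK1-KO livers. In Control livers they were 66684 to 74451 CPM. By that sum HSC-PCK1-KO replicate 1 lay above all Control livers and replicate 4 lay among them.

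Some genes for proteins of these complexes fall outside the naming rule in this annotation. Ndufab1, the acyl carrier subunit of complex I, was listed with the assembly factors above. It stood at 83.5 ± 5.19 CPM in HSC-PCK1-KO livers, against 80.4 ± 2.52 CPM in Control livers (SD, n = 4 each; log2 fold change 0.05). A further 3 genes are given here. Usmg5 (now Atp5md), a small ATP synthase subunit, stood at 95.3 ± 18.4 CPM in HSC-PCK1-KO livers, against 96.1 ± 21.2 CPM in Control livers (SD, n = 4 each; log2 fold change -0.01). Atpif1 (now Atp5if1), the peptide that stops ATP synthase from running backwards, had 15.9, 15.0, 15.0 and 13.6 CPM in HSC-PCK1-KO livers, against 18.4, 14.5, 15.7 and 18.3 CPM in Control livers. Its groups overlapped (-0.17, SE 0.095). Ndufb1-ps, which RefSeq lists as the protein-coding Ndufb1, stood at 57.3 ± 13.6 CPM in HSC-PCK1-KO livers, against 52.0 ± 11.1 CPM in Control livers (SD, n = 4 each; 0.14).

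**Figure D5:**
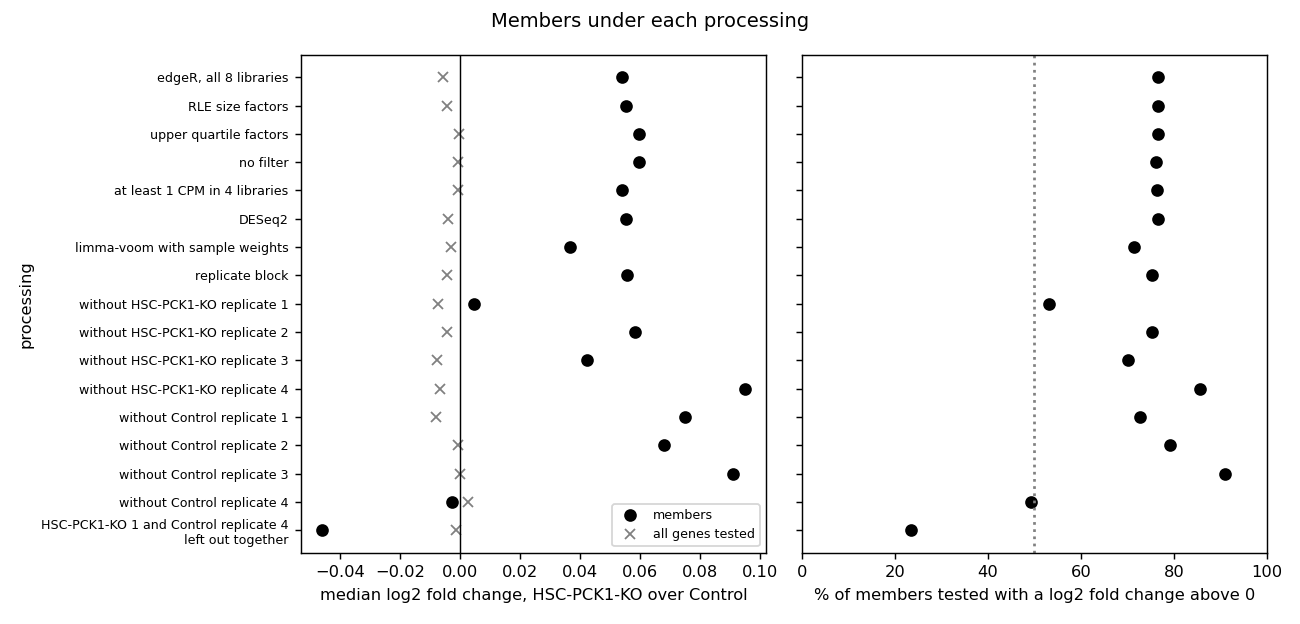
Median log2 fold change of the members and of all genes tested (left) and percentage of members tested with a positive log2 fold change (right) under each processing. The settings that change the scaling, the filter or the tool lie together between 0.037 and 0.060 on the left, and those without HSC-PCK1-KO replicate 1 or Control replicate 4 lie near or below 0.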

How the data were processed

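Liver poly(A) RNA of 8 samples was sequenced in paired-end reads, per the labels' protocols. The authors deposited raw counts per gene for each library, whole numbers with no normalization. The genome build was GRCm39 and R 4.3.2 was used, per the submitters' processing notes; the sources used here do not name the aligner, counting tool, annotation release or strand setting. Identifiers were matched to GENCODE M21 symbols (GRCm38), which named 52029 of 56953, and no file coordinates are given because the builds differ. Transcript length is that of the best supported principal transcript in that annotation.

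Analysis used R 4.3.3. Of 28811 genes with any count, edgeR's filterByExpr kept 15669. HSC-PCK1-KO and Control were compared with edgeR 4.0.16 (TMM factors, robust quasi-likelihood F-test on genotype alone). P-values were adjusted by Benjamini-Hochberg over the 15669 genes and called below 0.05. CPM uses library totals and TMM factors, and deviations use log2 CPM with a prior count of 2. The calculations were tested on simulated data. Other settings were scaling by upper quartile or RLE factors, a filter at 1 CPM in 4 libraries or none, limma-voom 3.58.1 with weights per sample, DESeq2 1.42.0, a block for the replicate number and the omission of single libraries.

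The members and lists were chosen with earlier results of these data known. Genes named with values were the 3 with the smallest p in each complex, catalytic subunits, tissue isoform pairs, Cyc1, Cycs, the ATP synthase inhibitor, the 2 with the smallest p of each other list of pathway genes, 5 regulators and Pck1. Further genes were named with their values in view.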

Additional observations from a re-analysis of the deposited data

Results flagged for a closer look

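In 11 of the 152 groups of 4 libraries examined, the highest or lowest library stood apart, by Dixon's ratio of its gap to the group's range at the 95% level. Chance gives about 1 in 20 such groups, or 7.6 of 152. Among Control livers, Atpaf1 was high in replicate 1, at 10.4 CPM against 8.79 to 8.96 CPM in the other libraries. Bcs1l and Cox18 were high in Control replicate 2, at 15.5 CPM against 12.7 to 13.1 CPM and at 14.2 CPM against 11.8 CPM in the others. Cox7a2l was high in Control replicate 3, at 88.5 CPM against 78.3 to 79.6 CPM. Gabpa was low in Control replicate 4, at 40.8 CPM against 45.1 to 45.6 CPM.

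Among HSC-PCK1-KO livers, Nrf1 and Vdac3 were low in replicate 4, at 6.52 CPM against 8.51 to 8.72 CPM and at 67.5 CPM against 71.9 to 72.3 CPM in the other libraries.

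Means of deviations from each gene's mean log2 CPM stood apart in 4 lists. The stellate cell markers were low in HSC-PCK1-KO replicate 1, at -0.37 against 0.041 to 0.068 in the other HSC-PCK1-KO libraries, and the endothelial markers were low in HSC-PCK1-KO replicate 2, at -0.35 against 0.076 to 0.14. The ATP synthase genes were low in Control replicate 4, at -0.22 against 0.00089 to 0.047 in the other Control libraries, and so were the complex IV assembly factors, at -0.20 against 0.016 to 0.034.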

How the results depend on the processing

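The number of members called was 0 under all 18 alternatives run, and their median log2 fold change lay between -0.046 and 0.095. DESeq2 called 6 genes of the whole table, and edgeR called 1 without Control replicate 1 and 0 under the other alternatives. The number of members with a positive value ran from 38 to 70 when single libraries were left out, the lowest being without Control replicate 4, and was 18 with HSC-PCK1-KO replicate 1 and Control replicate 4 left out together. With Usmg5, Atpif1 and Ndufb1-ps added 60 of 80 were positive, and with members overlapped on the same strand left out 54 of 72, both chosen after seeing the data and with 0 called. With the replicate block the median was 0.056 and 58 members were positive, with 0 called. The deviations from group means of libraries of the same number correlated at -0.033, -0.33, -0.059 and 0.058. Such correlations cannot exclude a pairing, and the labels state none. Of 52 single genes tested, 34 kept their sign under every scaling, filter and tool, the replicate block and the omission of single libraries. Single genes were not followed with HSC-PCK1-KO replicate 1 and Control replicate 4 left out together.

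With limma-voom the log2 fold change was -0.015 for Cox4i1, -0.0077 for Cox7a1, -0.019 for Gabpa and -0.032 for Ppargc1a, and with the replicate block it was -0.0038 for Uqcrc1. The other sign changes came with single libraries left out. In ATP synthase, Atp5b ran from -0.056 to 0.016, Atp5g1 from -0.095 to 0.064 and Atp5g3 from -0.021 to 0.12. In complexes III and IV and cytochrome c, Uqcrc1 ran from -0.045 to 0.076, Cyc1 from -0.099 to 0.075, Cycs from -0.050 to 0.099, Cox4i1 from -0.059 to 0.071, Cox7a1 from -0.067 to 0.32, Cox7a2 from -0.11 to 0.17 and Cox8a from -0.019 to 0.061. Among Nduf genes, Ndufv1 ran from -0.057 to 0.024, Ndufa4 from -0.029 to 0.092, Ndufa4l2 from -0.19 to 0.10 and Ndufaf1 from -0.0030 to 0.13. Of the others, Sdhd ran from -0.0038 to 0.083, Esrra from -0.019 to 0.13, Gabpa from -0.040 to 0.059 and Ppargc1a from -0.12 to 0.096. The cause was not tested. Depth limits mainly the tissue isoforms of complex IV, of which 5 could not be tested, and a median SE of 0.10 on the log2 scale sets what 4 libraries per group could show for the members.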
